A study of Mus musculus with 20 samples.

Results

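The sarcomeric actins and myosin light chains described here are 9 genes of gastrocnemius (GAS) muscle, taken by gene name from the 32285 genes of the deposited table. They are Acta1, Actc1, Mylpf, Myl1, Myl2, Myl3, Myl4, Mylk2 and Mylk4. Each name occurred once in the table, and all 9 genes passed the filter on low values (4 or more libraries at a value of 1 or above), which left 17948 genes to test. Male mice aged 12 weeks were used, either WT (C57BL/6) or homozygous for the knockout allele Tnfrsf11b tm1Smoc (Opg-/-), the gene of osteoprotegerin, a decoy receptor for RANKL. The right sciatic nerve was transected (den group), the left nerve was exposed and left intact (sham group), and the RNA of GAS muscle was sequenced at day 7. The sham limb is therefore the other limb of an operated mouse. There were 5 libraries in each of the 4 groups, WT sham, WT den, Opg-/- sham and Opg-/- den.

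The libraries held 15186247 to 20102295 reads, and 16270 to 17385 genes had a value above 0. The reads of WT sham 1 and 2 differed by less than sampling noise (chi-square per degree of freedom of 0.336, against 7.11 to 27.4 in the other 39 pairs within groups). They were averaged and counted as 1 sample, so n = 4 in WT sham and n = 5 in each other group. Values are estimated read counts scaled by 1 size factor per library. Tnfrsf11b itself had only 1 to 5 reads per WT sham library and 2 to 8 per WT den library, and the libraries labelled Opg-/- were not lower (5 to 10 reads for sham, 2 to 14 for den). Since a gene's total does not tell which exons were read, these reads do not check the label. The tissue label was checked against 7 muscle markers (Ckm, Myh4, Tnnt3, Tnni2, Pvalb, Atp2a1 and Des), of which Des is not particular to fast muscle. Of these, 0 were at 0 in every library of a group, and they summed to 825843 to 3603320 per library.

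In striated muscle, actin polymerises into the thin filament and myosin hexamers form the thick filament. Each myosin head carries an essential and a regulatory light chain on its lever arm. Fast fibres, slow fibres, heart and developing muscle use different light chain genes, and the proportions of these isoforms are used to describe the state of a muscle. In skeletal muscle, phosphorylation of the regulatory light chain by a calmodulin-dependent kinase raises the force of submaximal contractions. GAS muscle of the mouse is made up mostly of fast fibres.

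The members lie on 8 chromosomes of mm10 (GRCm38, GENCODE vM21). Acta1 (ENSMUSG00000031972, chr8:123891769-123894751, minus strand) encodes skeletal alpha-actin, the actin of adult skeletal thin filaments. Actc1 (ENSMUSG00000068614, chr2:114047282-114053548, minus strand) encodes cardiac alpha-actin, which is the main actin of heart and is also made in developing skeletal muscle. Mylpf (ENSMUSG00000030672, chr7:127208890-127214298, plus strand) encodes the fast regulatory light chain. Myl1 (ENSMUSG00000061816, chr1:66924295-66945404, minus strand) encodes the fast essential light chains. Myl2 (ENSMUSG00000013936, chr5:122100951-122113472, plus strand) encodes the regulatory light chain of slow fibres and heart ventricle. Myl3 (ENSMUSG00000059741, chr9:110741861-110769798, plus strand) encodes the essential light chain of the same fibres. Myl4 (ENSMUSG00000061086, chr11:104550663-104595753, plus strand) encodes the essential light chain of heart atrium and embryonic skeletal muscle. Mylk2 (ENSMUSG00000027470, chr2:152911352-152923068, plus strand) encodes the light chain kinase of skeletal muscle. Mylk4 (ENSMUSG00000044951, chr13:32700834-32783954, minus strand) encodes another kinase of this family.

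Reads of near-identical genes can be split by the counting. Of the 75-base stretches of the longest Acta1 transcript, 6 of 1372 (0.437%) also occurred in another gene (Actb or Gm47692), whereas 0 of 1399 stretches of Actc1 did, so the alpha-actins could be told apart along nearly their whole length. For Myl1, 167 of 1008 stretches (16.6%) also occurred in the pseudogene Mylf-ps. No gene of that name had a value here, so a split of Myl1 reads with it could not be seen. How the reads of these stretches were counted was not tested. For Mylk4 the number was 21 of 5497 (0.382%), and for Mylpf, Myl2, Myl3, Myl4 and Mylk2 it was 0. The library was not stranded, and exons of Myl2 overlap Ccdc63 on the opposite strand by 60 bases and exons of Myl3 overlap Pth1r by 95 bases.

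Striated muscle actin genes are known targets of serum response factor (SRF), which binds the CArG box. RefSeq (GRCm38.p6) gave promoter windows of 300 bases, from 250 before to 50 after the start site, for 8 of the 9 members, Mylk2 being the one not matched. The windows of Myl2 began at chr5:122092474 and chr5:122092939, upstream of the GENCODE start of the gene (122100951). Those of Actc1, Myl1, Mylpf and Myl3 lay inside the GENCODE gene. The Myl3 window began at chr9:110763428, whereas the GENCODE gene starts at 110741861. The sequence at the GENCODE starts of these genes was not searched. A CArG box on either strand occurred in the windows of 3 of these 8 genes (Acta1, Actc1 and Myl3) and in 1.63% of 32851 RefSeq promoter windows of the same length. No CArG box overlapped a match to the other motifs searched. Among the members, an E box (CANNTG) occurred in 7 of 8 (72.3% of all windows), a TATAAA in 4 of 8 (13.6%) and a MEF2 site in 1 of 8 (3.19%). The 150 bases before the start site are shown for the 3 genes with a CArG box, which is in capitals. A match is a description of the sequence and does not show that SRF was bound there.
Acta1, chr8:123894776-123894925, minus strand: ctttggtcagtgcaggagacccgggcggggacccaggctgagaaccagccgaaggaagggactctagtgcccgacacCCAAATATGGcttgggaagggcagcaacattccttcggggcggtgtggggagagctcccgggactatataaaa
Actc1, chr2:114052876-114053025, minus strand: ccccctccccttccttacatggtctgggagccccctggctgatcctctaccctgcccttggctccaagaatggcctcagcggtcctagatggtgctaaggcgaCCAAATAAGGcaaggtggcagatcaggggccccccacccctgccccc
Myl3, chr9:110763528-110763677, plus strand: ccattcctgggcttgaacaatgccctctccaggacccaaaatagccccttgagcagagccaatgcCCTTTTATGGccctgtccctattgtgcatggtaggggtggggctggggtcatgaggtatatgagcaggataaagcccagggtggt
The box begins 73 bases before the start site in Acta1, 47 in Actc1 and 85 in Myl3.

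Denervation was compared with sham to ask how the genes of the contractile filaments stood at day 7. Of the 9 members, 7 fell and 1 rose in WT mice at an adjusted p below 0.05, while Myl2 did not pass. In Opg-/- mice 8 fell and 1 rose. The gene that rose was Myl4 in both genotypes. Tests were made with limma on log2(value + 1) with Benjamini-Hochberg adjustment over all 17948 genes, and fold changes of the fit are on that scale. In WT mice 52.5% of all genes tested passed, 26.9% higher and 25.7% lower, and in Opg-/- mice 54.9% passed, 28.6% higher and 26.4% lower. A call alone was thus common. With the added condition of an absolute log2 fold change above 1, 5 members were lower and 1 higher in WT mice, against 10.2% of all genes lower and 9.59% higher. Under this condition 8 members were lower and 1 higher in Opg-/- mice, against 10.2% and 11.4% of all genes. The members had a median difference of -1.15 on the log2 scale in WT mice and of -1.51 in Opg-/- mice, and all genes together had -0.002 and 0.021. A median near 0 over all genes was largely set by the authors' scaling. With it, every library had the same median ratio (1.00716) to the geometric mean of the libraries. The sham and den values did not overlap for 8 members in WT and for all 9 in Opg-/- mice. Of all genes tested, 44.3% (WT) and 40.8% (Opg-/-) did not overlap in the same way. In bulk tissue, fewer cells of a type and less RNA per cell cannot be told apart.

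**Figure D1:**
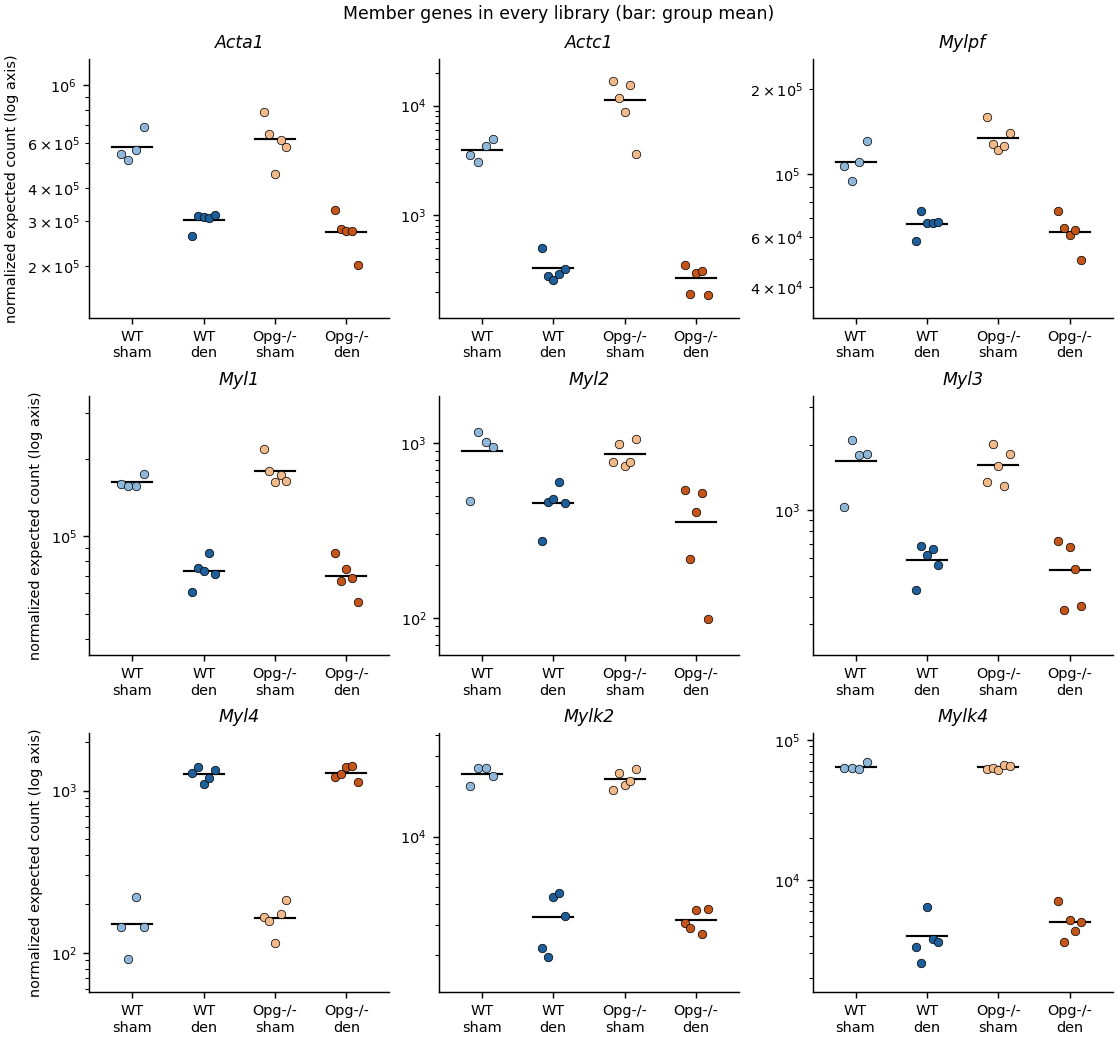
Normalized expected count (vertical, log axis) of each of the 9 genes in every library, with 1 point per library (the WT sham 1 and 2 pair averaged) and a bar at the group mean. The den libraries lie below the sham libraries for 8 genes, with an overlap in Myl2 of WT mice, and above them for Myl4.

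Acta1 was the most abundant member and fell to about the same level in both genotypes. Its values in WT sham were 690727 (the averaged pair), 544671, 515906 and 562256. In WT den they were 261928, 312703, 310640, 307399 and 315711. No den value came near the lowest sham value. In Opg-/- sham the values were 789097, 651051, 453795, 615155 and 579901. In Opg-/- den they were 330735, 278043, 273443, 274519 and 202921. The sham values spread more in Opg-/- mice but stayed above every den value. The mean fell 1.92-fold in WT mice (log2 fold change -0.93, SE 0.13, limma adjusted p = 1.03e-06) and 2.27-fold in Opg-/- mice (-1.18, SE 0.12, adjusted p = 6.56e-09). Acta1 nevertheless ranked no lower among all genes in the den libraries. It held 3.11% of the values of a library in WT sham (rank 2 to 4) and 2.01% in WT den (rank 1 in each of the 5 libraries). In Opg-/- mice it held 3.01% in sham (rank 2 to 5) and 1.82% in den (rank 1 to 3).

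Actc1 had the widest range among the groups. WT sham values were 4919, 3513, 3033 and 4258, and WT den values were 497, 276, 254, 287 and 319. The lowest sham value was thus several times the highest den value. Opg-/- sham values were 16616, 11618, 8788, 15441 and 3595, and Opg-/- den values were 348, 189, 295, 309 and 185. Replicate 5 was the lowest of the Opg-/- sham libraries and within the range of WT sham, while the Opg-/- den values were like those of WT den. The mean fell 12.03-fold in WT mice (log2 fold change -3.60, SE 0.38, limma adjusted p = 4.58e-07) and 42.3-fold in Opg-/- mice (-5.26, SE 0.35, adjusted p = 1.65e-09). When the 17948 fitted changes in Opg-/- mice were ordered from the lowest, Actc1 had rank 15.

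The ratio of the alpha-actins within a library moved with Actc1. Actc1 had 0.676% ± 0.0745 (SD, n = 4) of the Acta1 value in WT sham, with a range of 0.588% to 0.757%. In WT den it was 0.111% ± 0.0447 (SD, n = 5), and the highest library, replicate 1, had 0.190%. Skeletal alpha-actin was by far the main alpha-actin in every library. In Opg-/- sham the ratio was 1.79% ± 0.709 (SD, n = 5), with 0.620% in replicate 5 as the lowest and 2.51% as the highest. In Opg-/- den it was 0.0969% ± 0.0181 (SD, n = 5). The ratios are given as a description, without a test.

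**Figure D2:**
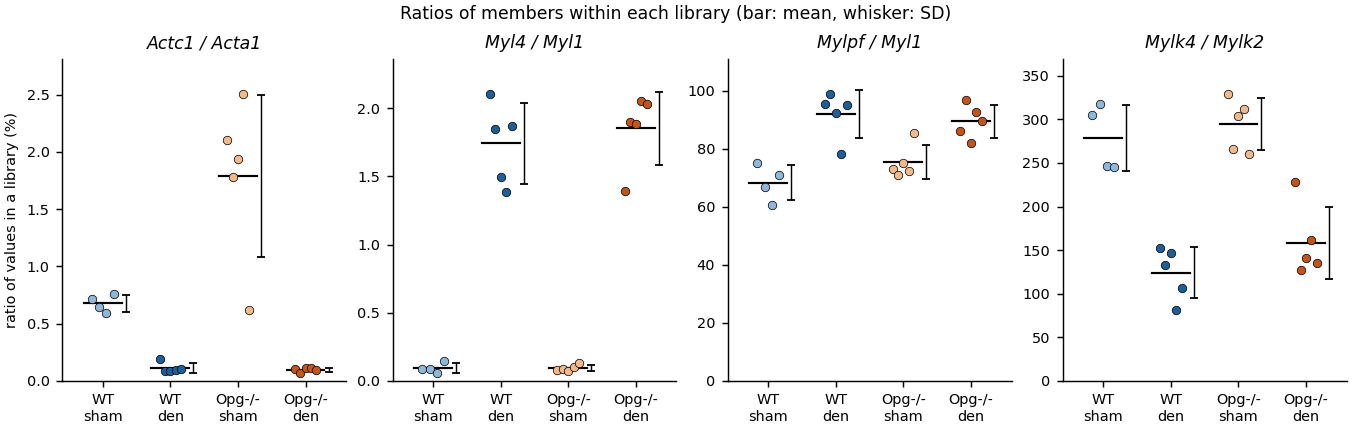
Ratio of the values of a pair of members within a library, in percent (vertical, linear axis from 0), for the 4 groups, with 1 point per library, a bar at the mean and a whisker of 1 SD. Actc1 over Acta1 and Mylk4 over Mylk2 were lower in den, and Myl4 over Myl1 and Mylpf over Myl1 were higher in den, with Opg-/- sham replicate 5 (0.620%) the lowest of its group in the first panel.

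Both fast light chains fell, Myl1 by more than Mylpf. For Myl1, WT sham values were 175275, 159790, 156164 and 156449, and WT den values were 60947, 74983, 73113, 85970 and 71235. In Opg-/- sham Myl1 had values of 218757, 179850, 162052, 173662 and 163946, and in Opg-/- den it had 86366, 66936, 74601, 68611 and 55511. Every den value lay well below every sham value. The mean of Myl1 fell 2.21-fold in WT (log2 fold change -1.15, SE 0.11, limma adjusted p = 2.93e-10) and 2.55-fold in Opg-/- mice (-1.36, SE 0.10, adjusted p = 2.2e-12). For Mylpf, WT sham values were 131386, 106711, 94688 and 110831, and WT den values were 58271, 74270, 67401, 67135 and 67645. The regulatory chain thus kept more of its sham level than the essential chain. In Opg-/- sham Mylpf had values of 159917, 127585, 121693, 125547 and 140240, and in Opg-/- den it had 74461, 64778, 61080, 63671 and 49796. The mean of Mylpf fell 1.66-fold in WT (-0.72, SE 0.10, adjusted p = 1.01e-06) and 2.15-fold in Opg-/- mice (-1.11, SE 0.10, adjusted p = 9.65e-11). Mylpf did not pass the fold condition in WT, nor did Acta1. Of the 7 muscle markers used for the tissue check, 6 fell and 1, Des, rose in each genotype. Their median difference was -1.1 in WT and -1.3 in Opg-/- mice on the log2 scale. Summed, they had 2395400 to 3120710 in the sham and 828730 to 1189420 in the den limb of WT mice. In Opg-/- mice the sums were 2981590 to 3603320 (sham) and 825843 to 1142750 (den).

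Within a library, the value of Mylpf was 68.3% of that of Myl1 in WT sham (SD 6.11, n = 4) and 92.0% in WT den (SD 8.14, n = 5). The ranges of 60.6% to 74.96% and 78.1% to 99.1% did not overlap. In Opg-/- mice the ratio was 75.4% ± 5.87 (SD, n = 5) in sham and 89.5% ± 5.76 (SD, n = 5) in den, and there the ranges of 70.9% to 85.5% and 81.9% to 96.8% overlapped.

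The slow light chains were minor members in this muscle. Myl3 fell in both genotypes, while Myl2 fell in Opg-/- mice and did not pass the test in WT mice. For Myl3, WT sham values were 1812, 1036, 2098 and 1807, and WT den values were 428, 682, 620, 664 and 560. Its Opg-/- sham values were 1348, 2015, 1597, 1296 and 1808, and its Opg-/- den values were 720, 346, 679, 537 and 361. WT sham replicate 3 was low for its group but still above all den values. The mean of Myl3 fell 2.86-fold in WT (log2 fold change -1.49, SE 0.25, limma adjusted p = 0.0001) and 3.05-fold in Opg-/- mice (-1.65, SE 0.24, adjusted p = 1.66e-05). For Myl2, WT sham values were 942, 467, 1154 and 1007, and WT den values were 274, 458, 481, 598 and 451. The same replicate 3 brought the WT groups to overlap. Its Opg-/- sham values were 775, 986, 736, 778 and 1050, and its Opg-/- den values were 535, 217, 403, 519 and 99. The difference in Myl2 was -0.94 (SE 0.43, 95% interval -1.85 to -0.04, adjusted p = 0.076) in WT and -1.51 (SE 0.40, adjusted p = 0.00444) in Opg-/- mice. Without WT sham replicate 3 the WT difference was -1.23 (adjusted p = 0.0308), and without Opg-/- den replicate 5, which enters only through the shared spread, it was -0.94 (adjusted p = 0.0177).

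Relative to their fast counterparts the slow chains did not separate the limbs. In WT mice Myl2 was 0.821% (SD 0.329, n = 4) of Mylpf in the sham limb and 0.672% (SD 0.153, n = 5) in the den limb, and it was 0.646% ± 0.118 and 0.546% ± 0.265 (SD, n = 5 each) in Opg-/- mice. In WT mice Myl3 was 1.05% (SD 0.294, n = 4) of Myl1 in the sham limb and 0.803% (SD 0.0789, n = 5) in the den limb, and it was 0.914% ± 0.224 and 0.739% ± 0.156 (SD, n = 5 each) in Opg-/- mice. The ranges of both ratios overlapped between limbs in both genotypes.

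The slow chains were set beside other genes of slow fibres. Of 8 slow fibre markers, 4 rose and 0 fell in WT, and 3 rose and 0 fell in Opg-/- mice. Tnnt1, slow troponin T, rose by 1.82 (SE 0.29, limma adjusted p = 4.53e-05) in WT and by 1.16 (SE 0.27, adjusted p = 0.00158) in Opg-/- mice on the log2 scale. Myh7, the slow myosin heavy chain, did not pass the test, with differences of -0.21 (SE 0.39, adjusted p = 0.688) and -0.68 (SE 0.36, adjusted p = 0.13). The summed value of the 8 markers was 8527 (the averaged pair), 5560, 11917 and 8592 in WT sham and 10726, 12976, 13522, 12425 and 11155 in WT den. WT sham replicate 3, low in both slow chains, also had the lowest marker sum. In Opg-/- mice the sum was 8494, 13063, 9357, 6773 and 10416 in sham and 12810, 9697, 14046, 13716 and 9211 in den. Replicates 2 and 5, the lowest Opg-/- den libraries in both chains, also had the lowest sums of that group. What part the slow fibre content of a piece of muscle had in these values was not tested.

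**Figure D3:**
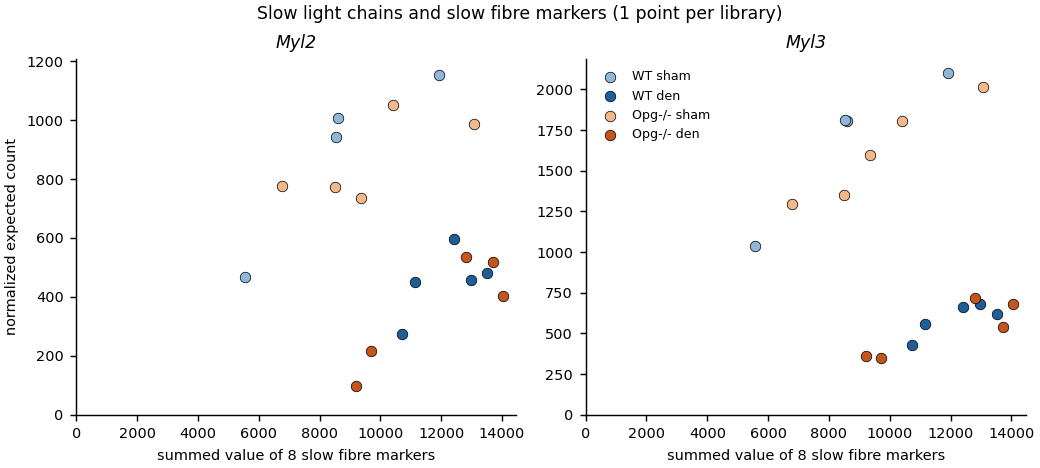
Normalized expected count of Myl2 (left) and Myl3 (right) on the vertical axis against the summed value of 8 slow fibre markers on the horizontal axis, with 1 point per library, linear axes from 0. Den libraries of either genotype lie below sham libraries of a like marker sum, and the libraries with the lowest sums of WT sham (5560) and Opg-/- den (9211) are low for their group in both genes.

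Myl4 was the one member that rose. WT sham values were 145, 144, 92 and 223, and WT den values were 1285, 1388, 1095, 1191 and 1332. Opg-/- sham values were 166, 157, 115, 173 and 211, and Opg-/- den values were 1205, 1271, 1404, 1410 and 1127. The 10 den libraries were close to each other whatever the genotype. The mean was 8.34-fold higher in den in WT mice (log2 fold change 3.11, SE 0.19, limma adjusted p = 1.11e-10) and 7.80-fold higher in Opg-/- mice (2.98, SE 0.18, adjusted p = 7.58e-11). Against Myl1 in the same WT library, Myl4 was 0.0935% in sham (SD 0.0351, n = 4) and 1.74% in den (SD 0.296, n = 5). The same ratio in Opg-/- mice was 0.0926% in sham (SD 0.0232, n = 5) and 1.85% in den (SD 0.267, n = 5). The fast essential chain stayed the main one in every library.

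Genes of immature fibres rose beside Myl4. All 6 markers on that list rose in both genotypes (their median difference was 3.54 for WT and 3.82 for Opg-/- mice on the log2 scale), among them Myh3, the embryonic myosin heavy chain, and Myog, the myogenic regulator myogenin. Their summed value was 394 to 492.5 in the sham limb of WT mice and 4360 to 8631 in their den limb, and 305 to 430 and 4071 to 7803 in those of Opg-/- mice. Of 4 heart markers that could be tested, Tnnt2, cardiac troponin T and also a gene of embryonic skeletal muscle, rose (4.03, SE 0.30, limma adjusted p = 1.01e-09 in WT). Myh6, a cardiac myosin heavy chain, fell in WT (-2.32, SE 0.52, adjusted p = 0.000413) and in Opg-/- mice (-1.36, SE 0.49, adjusted p = 0.0208). It was low throughout, with means of 15.6 in WT sham and 2.43 in WT den. Nppb, a defining gene of heart, was at 0 in every library, and the mean of Nppa was at most 1.13. The cardiac isoforms Actc1 and Myl4 thus moved in opposite directions. Red blood cell precursors also express Myl4, and of 5 red cell markers 1 fell and 0 rose in WT mice, and 4 fell and 0 rose in Opg-/- mice. Summed, they had 4962 to 8970 in the sham and 2280 to 5491 in the den limb of WT mice, and 4458 to 15560 and 2378 to 7658 in Opg-/- mice. Their part in the values of Myl4 was not tested.

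The kinases fell by far more than the light chains. For Mylk4, WT sham values were 69918, 63423, 63095 and 62311, and WT den values were 3333, 2557, 6471, 3810 and 3633. Its Opg-/- sham values were 62378, 63094, 61347, 66498 and 65451, and its Opg-/- den values were 7084, 3642, 5176, 4317 and 5041. Sham values agreed closely, with a coefficient of variation of 5.44% in WT and 3.38% in Opg-/- mice, and spread more in den, at 37.4% and 25.6%. The mean of Mylk4 fell 16.3-fold in WT (log2 fold change -4.10, SE 0.21, limma adjusted p = 2.38e-11) and 12.6-fold in Opg-/- mice (-3.69, SE 0.19, adjusted p = 3.68e-11). Among all genes of a library it ranked 31 to 34 in WT sham and 263 to 951 in WT den. For Mylk2, WT sham values were 22891, 19979, 25580 and 25442, and WT den values were 2194, 1931, 4420, 4662 and 3410. The kinase known to phosphorylate the fast regulatory chain thus fell severalfold more than that chain. Its Opg-/- sham values were 18922, 23712, 20184, 21295 and 25100, and its Opg-/- den values were 3098, 2875, 3677, 2665 and 3735. The mean of Mylk2 fell 7.06-fold in WT (-2.90, SE 0.22, adjusted p = 8.67e-09) and 6.80-fold in Opg-/- mice (-2.77, SE 0.21, adjusted p = 6.36e-09). The value of Mylk4 went from 2.79 to 1.24 times that of Mylk2 in WT and from 2.95 to 1.59 times in Opg-/- mice, as the mean of the ratios within libraries, without correction for gene length.

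The genotypes were compared within each limb. Of the 9 members, 0 passed limma's adjusted p between the sham groups, where 0.106% of all genes did, and 2 had an unadjusted p below 0.05 (2146 genes in all did). These were Actc1, higher in Opg-/- sham by 1.35 (SE 0.38, 95% interval 0.56 to 2.15, adjusted p = 0.191), and Mylpf, higher by 0.29 (SE 0.10, interval 0.07 to 0.50, adjusted p = 0.286). For Actc1, 4 of the 5 Opg-/- sham libraries were above all WT sham values, and replicate 5 was not. Without Opg-/- sham replicate 5 the difference was 1.72 (SE 0.27, adjusted p = 0.0194). Actc1 was then the 1 member called, and 22 of 17876 genes passed. The check for outlying libraries given below did not flag Actc1 in this replicate, so that check gives no ground to leave it out. The intervals of the other members included 0, the narrowest being that of Myl1 (-0.08 to 0.36) and the widest that of Myl2 (-0.89 to 0.93).

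Between the den groups 0 members passed the test, where 0.0613% of all genes did, and 0 had an unadjusted p below 0.05 (1237 genes in all did). The largest positive difference was that of Mylk4 (0.39, interval -0.03 to 0.80, limma adjusted p = 0.753), and the lowest was that of Myl2 (-0.55, interval -1.41 to 0.31, adjusted p = 0.871). For Acta1 it was -0.16 (interval -0.42 to 0.09), for Mylpf -0.10 (-0.30 to 0.10) and for Myl1 -0.06 (-0.27 to 0.14). For Actc1 the interval was -1.06 to 0.45, and for Myl4 it was -0.35 to 0.41.

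The difference of the denervation effects, or interaction, passed the test for 0 members, where 0.00557% of all genes passed, and 2 members had an unadjusted p below 0.05 (1249 genes in all did). Actc1 fell by more in Opg-/- mice, with a difference of -1.66 (SE 0.52, interval -2.76 to -0.56, limma adjusted p = 0.557). Mylpf also had a negative difference, of -0.39 (SE 0.14, interval -0.68 to -0.09, adjusted p = 0.647). Both had their higher level in Opg-/- sham, and the interaction shares those libraries with the comparison of the sham groups. That Actc1 fell further in Opg-/- than in WT mice was thus not shown after adjustment.

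**Figure D4:**
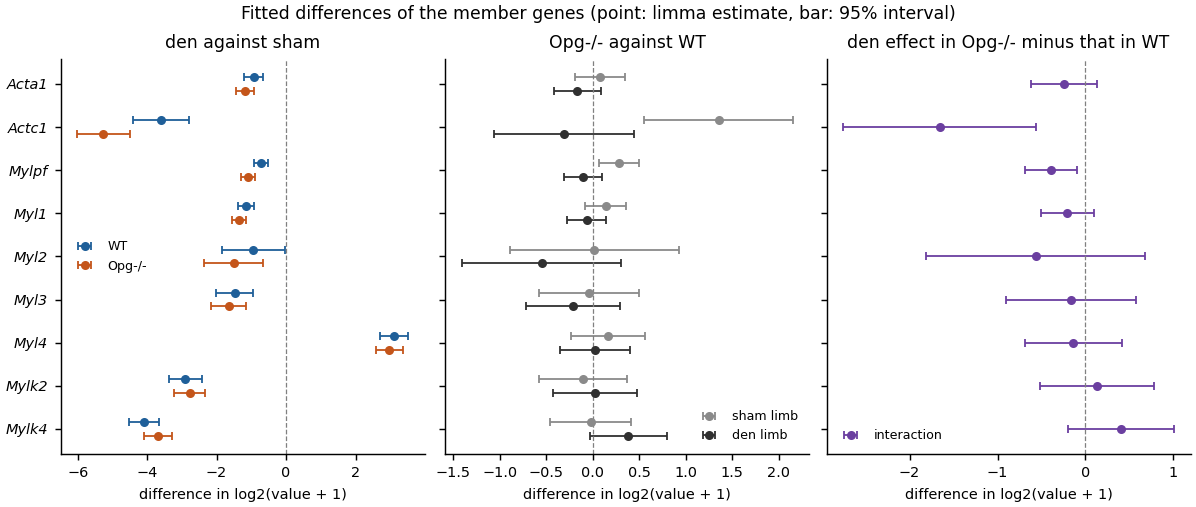
Fitted difference of log2(value + 1) (horizontal) for the 9 genes (vertical), as limma estimates with 95% intervals, for den against sham in each genotype (left), Opg-/- against WT in each limb (middle) and the interaction (right). In the left panel Myl4 is the one gene above 0 (3.11 and 2.98), and in the other panels the intervals of Actc1 (sham limb, from 0.56) and Mylpf (sham limb, from 0.07) and of both genes in the interaction leave out 0.

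Levels were compared between genes as the value per kb of exon sequence. In both sham groups the order from the highest was Acta1, Mylpf, Myl1, Mylk4, Mylk2, Actc1, Myl3, Myl2 and Myl4. Acta1 had a mean of 376556 per kb in WT sham, and Myl4 had 32.5. Neighbours whose libraries overlapped were Mylk4 and Mylk2 in both sham groups, Myl3 and Myl2 in WT sham, and Mylk2 and Actc1 in Opg-/- sham. With the longest transcript as the length, Myl1 came before Mylpf in WT sham and Actc1 before Mylk2 in Opg-/- sham. The order of the first 3 genes was the same in the den groups. Mylk2 then came before Mylk4, the slow chains and Myl4 overlapped with each other, and Actc1 had become the lowest member, with 202 per kb in WT den and 164 in Opg-/- den. Mylk2 and Mylk4 overlapped in both den groups, as did Myl2 and Actc1, and so did Mylk4 and Myl3 in WT den. With the longest transcript as the length, Myl4 came after Myl3 and Myl2 in both den groups. The 9 genes together made up 4.81% to 5.36% of a library's summed values in WT sham and 2.75% to 3.17% in WT den. For Opg-/- mice these shares were 4.24% to 5.75% (sham) and 2.23% to 3.24% (den).

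The scaling sets how much of these falls is seen. When libraries were instead scaled to equal totals, the median of all genes shifted to 0.267 in WT and 0.417 in Opg-/- mice, and 72.1% and 78.8% of the genes called were higher in den, against 51.2% and 52.0% with the authors' scaling. Between the sham groups the median shifted to -0.112, with 14.3% of 35 calls higher in Opg-/- mice in place of 36.8% of 19, and in the interaction it shifted to 0.125. No member changed its direction or its call at the adjusted p between limbs, but fewer met the condition on fold. With equal totals that condition held for 4 members lower and 1 higher in WT mice, where 6.15% of all genes were lower and 15% higher. In Opg-/- mice it held for 5 lower and 1 higher, beside 5.1% and 20.7% of all genes. On that scale Acta1 differed by -0.63 and -0.73, Mylpf by -0.42 and -0.66, and Myl4 by 3.42 and 3.43.

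The other actins fell too. All 4 passed the test in both genotypes, with a median of -1.29 (WT) and -1.15 (Opg-/-) on the log2 scale. The smooth muscle actin Acta2 changed by -1.31 and -1.73, the cytoplasmic gamma-actin Actg1 by -1.28 and -0.97, the smooth muscle actin Actg2 by -1.42 and -1.32, and the cytoplasmic beta-actin Actb by -0.26 and -0.38. Actg2 had means of at most 5.27, and 54.5% of the stretches of Actg1 also occurred in another gene, mostly pseudogenes. All 4 smooth muscle markers (Myh11, Tagln, Cnn1 and Smtn) fell as well, their sum being 2650 to 2922 in WT sham and 1552 to 1702 in WT den, and 2747 to 3247 and 1290 to 1571 in Opg-/- mice. All 5 endothelial markers fell too, from a sum of 5309 to 5741 in WT sham to one of 2310 to 3212 in WT den, and from 4975 to 6684 to 2266 to 3097 in Opg-/- mice. The part of vessel cells in the values of Acta2 was not tested. Of 6 macrophage markers, 2 rose in WT and 6 in Opg-/- mice, and they summed to 829.03 to 1280 in the sham and 997 to 2512 in the den limb of WT mice, and to 498 to 899 and 1268 to 2717 in Opg-/- mice.

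Among 6 other myosin light chains that could be tested, 2 rose and 2 fell in each genotype. Myl12a, a regulatory light chain of nonmuscle myosin, had values of 3012, 2767, 2839 and 2783 in WT sham and 39567, 45076, 39912, 42563 and 38860 in WT den. The sham libraries of Opg-/- mice had 3267, 3000, 2911, 2842 and 3640, and their den libraries had 43180, 48901, 43745, 44834 and 40288. It changed by 3.85 (SE 0.08, limma adjusted p = 6.65e-25) in WT and by 3.82 (SE 0.07, adjusted p = 1.22e-25) in Opg-/- mice. The 10 den libraries were again close to each other in both genotypes. Of the Myl12a stretches, 26.9% also occurred in a second gene model named Myl12b, for which no value is given here. In the Myl12b model that was tested, 3.44% of them occurred. Exons of Myl12a overlap Myom1 on the opposite strand. The tested Myl12b model changed by -0.41 in each genotype, and Myom1, which encodes the M-band protein myomesin, changed by -0.71 (adjusted p = 4.28e-08) and -0.92 (adjusted p = 8.02e-11).

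Myl6b, an essential light chain of slow and embryonic skeletal muscle, had values of 83.9, 88.2, 99.9 and 66.2 in WT sham and 501, 578, 612, 642 and 612 in WT den. The sham libraries of Opg-/- mice had 127, 82.9, 88.6, 67.1 and 58.5, and their den libraries had 615, 311, 392, 584 and 257. It changed by 2.80 (SE 0.24, limma adjusted p = 1.3e-08) in WT and by 2.30 (SE 0.23, adjusted p = 7.41e-08) in Opg-/- mice. Of the essential chains outside the fast type, Myl6b and Myl4 thus rose and Myl3 fell. Myl9, the regulatory chain of smooth muscle, changed by -1.31 and -1.76. Myl6, the essential chain of nonmuscle and smooth muscle myosin, differed by 0.02 (adjusted p = 0.811) and -0.04 (adjusted p = 0.683), and Myl10 by -0.97 (adjusted p = 0.122) and -0.88 (adjusted p = 0.134). Myl7, the regulatory chain of heart atrium, was at 0 in every library and was not tested.

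The other kinases, calmodulin and the phosphatase gave 1 gene higher and 5 lower of 9 in WT, and 1 higher and 6 lower in Opg-/- mice. Mylk, the kinase of smooth muscle and nonmuscle cells, changed by -1.30 and -1.24. Mylk3, the kinase of heart, had means of at most 3.40 and did not pass (adjusted p = 0.192 and 0.233). Of the genes for calmodulin, which activates these kinases, Calm2 changed by -1.22 and -1.34 and Calm3 by -0.59 and -1.01. Ppp1r12a, a targeting subunit of myosin phosphatase, rose by 1.35 and 1.40. Its related subunit Ppp1r12b, which is the muscle form, changed by -0.42 and -0.59, the catalytic subunit Ppp1cb by -0.37 and -0.52, and Ppp1r12c by -0.12 (adjusted p = 0.131) and -0.24 (adjusted p = 0.00215). None of these genes passed between genotypes in either limb.

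**Figure D5:**
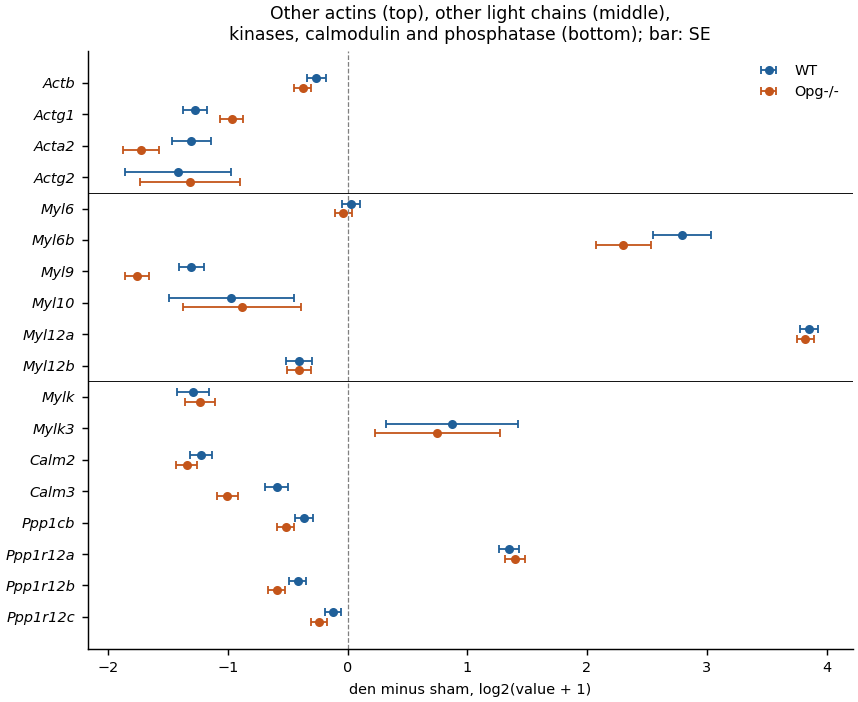
Difference of log2(value + 1) between den and sham (horizontal), with 1 SE, for genes of the other actins (top), other myosin light chains (middle) and the kinase, calmodulin and phosphatase list (bottom), in WT and Opg-/- mice. Myl12a (3.85 and 3.82), Myl6b (2.80 and 2.30) and Ppp1r12a (1.35 and 1.40) stand above 0, and the 4 other actins stand below it.

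Genes that build the thin filament were divided. Of 15, 6 rose and 6 fell in WT, and 5 rose and 6 fell in Opg-/- mice. Lmod2, a leiomodin that elongates thin filaments, rose by 2.12 and 2.23 on the log2 scale, and Klhl40, which stabilises thin filament proteins, rose by 1.38 and 1.04. Smyd1, a methyltransferase needed for myosin assembly, changed by -1.80 and -2.09, and Cfl2, the muscle cofilin that severs actin filaments, rose by 1.32 and 1.22. SRF and its cofactors gave 1 higher and 3 lower of 6 in each genotype. Fhl2, a LIM protein, rose by 2.32 and 2.64, whereas Abra, an actin-binding activator of SRF signalling, changed by -0.96 and -0.97, Mrtfa, an SRF coactivator that binds free actin, by -0.92 and -1.08, and Srf by -0.49 and -0.72. None of the genes on these lists passed between genotypes.

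For each member the 3 genes with the most similar course were found, as the smallest mean absolute difference of log2(value + 1) over the 19 samples after each gene's mean was subtracted. They were Srl (0.0914), Itgb1bp2 (0.109) and mt-Co3 (0.114) for Acta1, and Tpm1 (0.063), Mapkapk2 (0.0736) and Isca1 (0.0801) for Myl1. For Mylpf they were the fast troponins Tnnt3 (0.0735) and Tnni2 (0.0865) with Ctdnep1 (0.0784). Mylk2 was followed most closely by Spns2 (0.173), Lrig1 (0.178) and Hr (0.202), and Mylk4 by the glycolytic gene Tpi1 (0.209), Gdap1 (0.216) and Gpd1 (0.239). The nearest to Myl4 were Arpp21 (0.211), H19 (0.233) and Tekt1 (0.235), and to Myl3 they were Acss2 (0.201), Fndc5 (0.222) and Padi2 (0.232). For Actc1 (Gm12199 at 0.487, Rhbdl1 at 0.507 and Eno3 at 0.518) and Myl2 (Mirg at 0.325, Hspb6 at 0.339 and Cabp1 at 0.343) no gene came as near. Among the members themselves the nearest pairs were Acta1 with Mylpf (0.115) and Acta1 with Myl1 (0.122), while Mylk2 and Mylk4 differed by 0.555 and Acta1 and Actc1 by 1.72.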

How the data were processed

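The signal values deposited by the authors are expected counts of RSEM, each library divided by a size factor, after non-strand-specific sequencing and mapping with STAR to mm10 (versions not given in the sources used here). After division by the value of 1 read, 87.2% to 88.3% of values were whole within 0.01. Values were tested as log2(value + 1) with limma 3.58.1 in R 4.3.3 (trended, robust variance) in a single fit of 19 samples, for genes that reached a value of 1 in 4 or more libraries. All tests were two-sided with Benjamini-Hochberg adjustment, and the code was tested on simulated data. The members and gene lists were chosen with earlier results of these data known. Named were all members, every tested gene of the lists of actins, light chains and kinases, up to 4 called genes with the largest change in WT of the other lists, and the 3 genes most like each member. A gene that this rule includes is not reported here. Myom1 and the marker genes given by name were picked with their values in view. Each mouse gave both limbs, but no source ties a replicate number to a mouse. The deviations of same-numbered libraries were weakly correlated (r of -0.034 to 0.057). In WT mice r was -0.034 to 0.057 for the same number and -0.080 to 0.091 for different numbers. In Opg-/- mice r was 0.012 to 0.045 for the same number and -0.046 to 0.032 for different numbers. A pairing by number is thus neither shown nor excluded, and the main fit used none. Nothing states that libraries of a group came from separate mice, so p-values measure the spread between these samples. Lengths came from GENCODE vM21 (99.61% of gene IDs matched). Python 3.11.15, numpy 2.4.6, pandas 2.3.3 and matplotlib 3.10.9 were used for the rest.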

Additional observations from a re-analysis of the deposited data

Results flagged for a closer look

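Each member was checked in each group for a library far from the others, 36 checks in all, of which 3 were positive. Chance gives about 1 in 20. Acta1 in WT den replicate 1 was 261928, against 307399 to 315711 in the other WT den libraries. Actc1 in the same library was 497.06, against 254.079 to 318.856. Mylk4 in the averaged pair WT sham 1 and 2 was 69917.8, against 62310.7 to 63422.7 in the other WT sham libraries. Actc1 in Opg-/- sham replicate 5 was not flagged.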

How the results depend on the processing

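Every called difference of a member kept its direction under all alternatives run (pseudocount of 0.1, no filter and a stricter filter, equal library totals, only the groups compared in the fit, no averaging of WT sham 1 and 2, voom on values divided by that of 1 read, a replicate block and each library left out; leaving out WT sham 1 and 2 together, and equal totals joined with the fold condition, were added after seeing the data). The number of members called was 5 to 9 in WT (6 with the fold condition, 5 with equal library totals and that condition), 6 to 9 in Opg-/- mice, and 0 between the den groups and in the interaction. Between the sham groups it was 0 to 1 when a library was left out, the 1 being Actc1 without Opg-/- sham replicate 5 (1.72, adjusted p = 0.0194, over an adjusted p of 0.0194 to 0.453 in all alternatives). Myl2 in WT was called in 5 alternatives, its difference ranging from -1.23 to -0.64 and its adjusted p from 0.0177 to 0.417; the fit of only the groups compared gave 0.0399, the separate WT sham libraries 0.0432 and voom 0.0495. In the main fit 52.5% (WT) and 54.9% (Opg-/-) of all genes passed between limbs. The replicate block gave 8 members called in WT, where 8516 of 17948 genes passed, and 9 in Opg-/- mice, where 9934 passed. In the interaction it gave 0 members, where 11 genes passed, and it changed no call of a member. In WT mice this block compared the limbs only within replicates 3 to 5, because the averaged pair had no den library of the same number. edgeR and DESeq2, foreseen for whole reads, were not run because too few values were whole.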
